A study of Mus musculus with 19 samples.

Results

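ChIP-seq of 3 repressive histone modifications was examined at day 4 of *Dnmt1* deletion in mouse embryonic stem cells (ESCs), the earlier of the days sampled. The libraries were taken by their labels: each carried day 4 and replicate number 1, and for each of H3K27me3, H3K9me2 and H3K9me3 there was 1 control library and 1 library from *Dnmt1* conditional knockout (cKO) cells. These were 6 of the 19 libraries of the series, the others being 12 day 8 libraries of the same marks and 1 input library of chromatin taken without an antibody. The labels give E14 as the background of all cells, while the study's methods describe the *Dnmt1* loxP/loxP line as C57BL/6, and this difference was not resolved here. Control cells were labelled wild-type, and in the cKO cells *Dnmt1* had been removed by Cre-mediated recombination, which elsewhere in the study was switched on with a tamoxifen derivative. Whether the controls of these libraries were exposed to it is not given in the sources used here. For ChIP the cells were grown on dishes coated with gelatine. Input came from control cells only. With 1 pair per mark no test within a mark was possible at day 4, so values are given with 95% limits that cover counting error only. Whether the 3 pairs came from the same cultures is not stated.

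DNMT1 copies CpG methylation onto the new strand after DNA replication, so its loss dilutes methylation over successive divisions. H3K27me3 is laid down by Polycomb repressive complex 2 and in ESCs covers CpG-rich promoters of developmental regulators. H3K9me2, the product of the G9a and GLP methyltransferases, spreads over broad gene-poor domains and is low at active CpG-rich promoters. H3K9me3 is deposited by SETDB1 and the SUV39H enzymes at retrotransposons, at satellite repeats and at imprinting control regions. At imprinting control regions, where the copy inherited from one parent is methylated, the zinc finger protein ZFP57 binds the methylated motif TGCCGC and recruits KAP1 and SETDB1.

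The sequences before the starts of 4 imprinted genes are shown because H3K9me3 at these promoters ran, among imprinted promoters that carry the mark, from the lowest change at day 4 to one within counting error. Each line holds the 300 bases upstream of the annotated start in build NCBIM37, all on the plus strand, 5′ to 3′, with every CpG in capitals. *Zrsr1* (ENSMUSG00000044068), an imprinted gene of a splicing factor family, is shown at chr11:22872915-22873214, and *Plagl1* (ENSMUSG00000019817), a zinc finger growth regulator, at chr10:12810197-12810496. *Nnat* (ENSMUSG00000067786), which encodes neuronatin, is shown at chr2:157385514-157385813, and *Meg3* (ENSMUSG00000021268), a maternally expressed long noncoding RNA, at chr12:110778911-110779210.
Zrsr1: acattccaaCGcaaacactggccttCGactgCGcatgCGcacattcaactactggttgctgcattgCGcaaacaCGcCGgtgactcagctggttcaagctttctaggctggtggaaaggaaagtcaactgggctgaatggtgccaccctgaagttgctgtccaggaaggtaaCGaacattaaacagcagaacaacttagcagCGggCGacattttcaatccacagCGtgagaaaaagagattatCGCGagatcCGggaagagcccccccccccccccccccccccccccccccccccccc
Plagl1: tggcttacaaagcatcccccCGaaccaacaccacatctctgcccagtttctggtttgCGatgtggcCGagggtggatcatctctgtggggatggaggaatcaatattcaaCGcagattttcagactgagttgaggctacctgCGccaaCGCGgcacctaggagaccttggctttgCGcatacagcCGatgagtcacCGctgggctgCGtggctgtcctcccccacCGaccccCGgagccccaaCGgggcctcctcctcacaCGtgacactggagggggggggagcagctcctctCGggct
Nnat: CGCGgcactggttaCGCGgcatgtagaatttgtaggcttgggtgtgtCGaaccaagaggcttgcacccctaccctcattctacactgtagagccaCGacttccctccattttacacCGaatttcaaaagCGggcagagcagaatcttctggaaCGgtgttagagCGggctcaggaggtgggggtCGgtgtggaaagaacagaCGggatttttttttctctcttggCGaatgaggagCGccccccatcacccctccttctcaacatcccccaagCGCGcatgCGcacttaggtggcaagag
Meg3: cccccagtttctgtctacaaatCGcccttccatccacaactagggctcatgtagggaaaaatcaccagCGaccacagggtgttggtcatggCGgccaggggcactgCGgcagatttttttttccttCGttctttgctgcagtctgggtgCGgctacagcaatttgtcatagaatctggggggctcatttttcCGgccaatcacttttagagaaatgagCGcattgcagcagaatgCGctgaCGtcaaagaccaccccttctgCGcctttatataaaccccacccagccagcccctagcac
These windows held 14, 16, 17 and 11 CpGs in that order. The motif TGCCGC, searched on both strands (GCGGCA on the other), was found 0, 1, 2 and 1 times. It occurred in 10.9% of the same windows of all genes (2829 of 26042) and in 6 of the 12 imprinted promoters described below. The motif holds a CpG, and the median number of CpGs was 14.5 in these 12 windows against 8 over all genes. The windows of *Peg10* and *Sgce* overlap in part, and an excess of the motif was not tested.

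Another set shows promoters at which H3K27me3 differed in opposite directions. *Sycp3* (ENSMUSG00000020059, chr10:87922014-87922313) encodes a protein of the synaptonemal complex of meiosis and is silenced by DNA methylation outside the germline. *Hoxd9* (ENSMUSG00000043342, chr2:74535437-74535736) encodes a homeodomain protein of the HoxD cluster and is a Polycomb target. Both windows lie on the plus strand of the same build and held 11 CpGs and no TGCCGC on either strand.
Sycp3: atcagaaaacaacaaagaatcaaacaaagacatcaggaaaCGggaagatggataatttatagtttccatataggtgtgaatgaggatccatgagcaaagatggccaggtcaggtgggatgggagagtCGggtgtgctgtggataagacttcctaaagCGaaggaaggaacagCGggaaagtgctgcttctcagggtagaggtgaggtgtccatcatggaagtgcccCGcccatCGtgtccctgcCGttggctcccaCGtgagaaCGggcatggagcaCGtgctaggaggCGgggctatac
Hoxd9: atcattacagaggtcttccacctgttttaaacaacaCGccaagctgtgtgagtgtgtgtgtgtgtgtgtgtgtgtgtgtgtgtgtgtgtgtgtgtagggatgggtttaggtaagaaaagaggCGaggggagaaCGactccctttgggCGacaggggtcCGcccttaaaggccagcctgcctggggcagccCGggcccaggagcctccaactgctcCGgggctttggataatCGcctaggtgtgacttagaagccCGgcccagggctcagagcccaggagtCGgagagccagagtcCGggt

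Whole reads per 2 kb tile were recovered from the deposited values, which compare observed with expected reads on a log2 scale. Day 4 libraries held 14627174 to 22947678 reads in the tiles and the input held 19010249. The day 8 libraries used for comparison held 16216366 to 26181489, apart from the H3K9me3 cKO library of pair 1 with 5669098. Reads were summed over 10 kb windows, 100 kb windows and promoters, a promoter being the tiles within 2 kb of the start of each of 26048 genes. A change is the log2 ratio, cKO over control, of reads scaled to 1000000 reads in the tiles (RPM), and a level is the ratio of RPM to input. As a check of the genotype, the tile chr9:20744001-20746000, which holds coding exon sequence of *Dnmt1*, had 6, 8 and 9 reads in the H3K27me3, H3K9me2 and H3K9me3 control libraries at day 4. The cKO libraries had 2, 3 and 4 reads there. Summed over the marks this was 23 against 9 reads at day 4, 24 against 0 in day 8 pair 1 and 25 against 1 in pair 2, with 14 in the single input library. The cKO was lower in each mark at day 4, with reads still present that were nearly gone at day 8. An exon kept in some cells and sequence kept on some copies cannot be told apart in bulk chromatin.

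Few features differed strongly at day 4. Past 2-fold, with at least 20 reads in a pair, H3K27me3 was higher in the cKO in 384 of 250578 10 kb windows (0.153%) and lower in 1434 (0.572%). H3K9me2 leaned the other way, with 1718 of 250197 windows higher (0.687%) and 426 lower (0.17%). H3K9me3 was higher in 291 of 252006 (0.115%) and lower in 337 (0.134%). Lower windows outnumbered higher ones for H3K27me3, the reverse held for H3K9me2, and H3K9me3 was near balance. In day 8 pair 1 the same fold was passed by 1445 higher (0.577%) and 2567 lower (1.03%) H3K27me3 windows. For H3K9me2 it was 2334 (0.932%) and 1539 (0.614%), and for H3K9me3 2369 (0.948%) and 9416 (3.77%). The H3K9me3 cKO library of this pair was the shallow one, and the pair held 84 reads per window at the median. Counting limits of the ratio excluded 1 for 6885 of the 9416 lower windows. In pair 2 the numbers were 1314 (0.523%) and 5118 (2.04%), 12915 (5.15%) and 386 (0.154%), and 1296 (0.515%) and 2394 (0.951%).

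Over 100 kb windows, where 1.5-fold was used, H3K27me3 was higher in 12 of 25474 (0.0471%) and lower in 17 (0.0667%). For H3K9me2, 24 of 25470 were higher (0.0942%) and 13 lower (0.051%), and for H3K9me3, 2 of 25510 were higher (0.00784%) and 18 lower (0.0706%). The spread of the changes was narrow: the SD of H3K27me3 over 100 kb windows was 0.12, that of H3K9me2 0.14 and that of H3K9me3 0.12, against 0.21 to 0.31 in the day 8 pairs. Promoters passed 2-fold more often than 10 kb windows, but held fewer reads. The median in the pair was 109, 52 and 58 for H3K27me3, H3K9me2 and H3K9me3, against 135, 140 and 144 per 10 kb window. H3K27me3 was higher at 90 of 25048 promoters (0.359%) and lower at 476 (1.9%). H3K9me2 was higher at 998 of 21760 (4.59%) and lower at 206 (0.947%), and H3K9me3 was higher at 289 of 25117 (1.15%) and lower at 211 (0.84%). Counting limits of the ratio excluded 1 for 62 higher and 347 lower H3K27me3 promoters. For H3K9me2 this held for 614 and 121, and for H3K9me3 for 242 and 171. The median promoter change of H3K27me3 was −0.10, that of H3K9me2 0.11 and that of H3K9me3 0.02.

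The features past the fold were those with few reads. The median number of reads in the pair was 135, 140 and 144 over all 10 kb windows in the order above, and 41, 47 and 56 in the higher and 52, 39.5 and 44 in the lower windows. Chromosome X had 65 to 68 reads per window at the median against 139 to 147 on the autosomes. It made up 5.71% to 5.92% of windows, but 32.8% of those with higher and 16.3% of those with lower H3K27me3. For H3K9me2 it held 11.4% of the higher and 32.6% of the lower windows, and for H3K9me3 32.6% and 41.8%. The counting limits of the ratio lay wholly on one side of 1 for 301 higher and 1291 lower H3K27me3 windows, 1477 and 322 H3K9me2 windows, and 250 and 279 H3K9me3 windows. The part of read depth in these counts was not tested.

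H3K27me3 was lower in the cKO where CpGs were dense. The median promoter change was −0.05, 0.01 and −0.01 in promoters with 0 to 5, 5 to 10 and 10 to 20 CpGs per kb. It was −0.19 with 20 to 40 (9308 promoters) and −0.30 with 40 or more, where 89.3% of 1006 promoters lay below 0. At day 8 this last class stood at −0.88 in pair 1 and −1.18 in pair 2. The day 4 medians of promoters with at least 40 CpGs per kb were then compared across levels of the mark in the day 8 controls. They were −0.30 where the level was below input by more than 0.5 on the log2 scale (194 promoters) and −0.32 where it was above input by more than 1.5 (585 promoters), so the difference was of a like size at both ends. In the 585 enriched promoters the median level was 11.7 times input in the day 4 control and 9.03 times in the cKO. Of these, 97.3% were below 0 and 0 passed 2-fold. Equally enriched promoters with 10 to 20 CpGs per kb had a median change of −0.02 (1579 promoters).

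**Figure D1:**
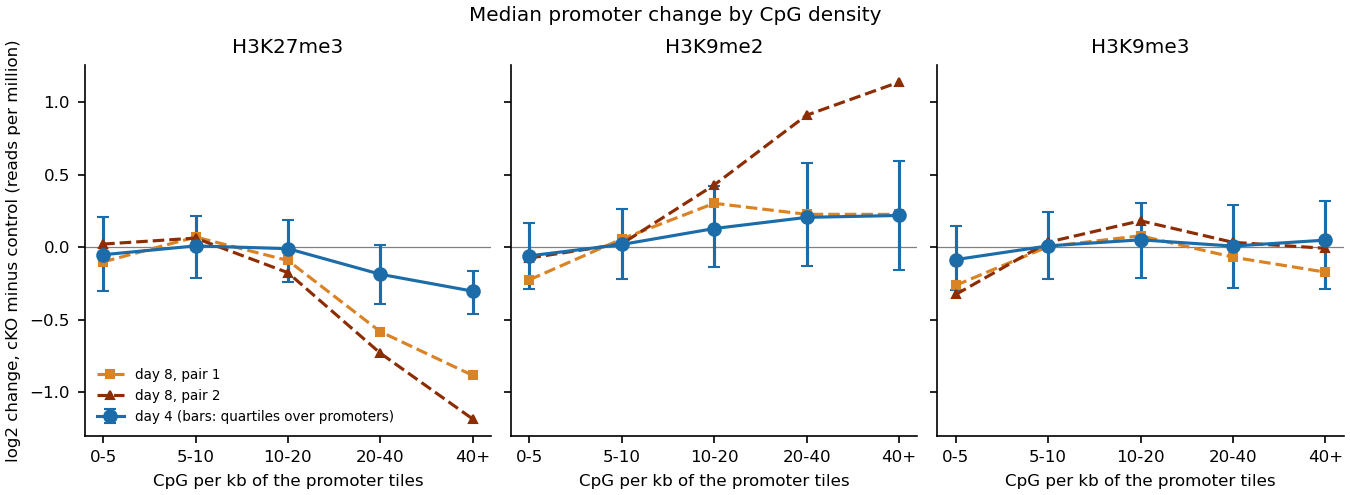
Median promoter change (log2, cKO minus control, y axis) against CpG density (CpGs per kb, x axis) for each mark. Circles with quartile bars are day 4 and squares and triangles are the day 8 pairs. H3K27me3 at day 4 goes from −0.05 to −0.30 across the classes and H3K9me2 from −0.06 to 0.22.

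Promoters of developmental regulators had lower values too. The 39 Hox genes, which set positional identity along the body axis, were at 21.0 times input in the control and 18.6 times in the cKO at the median. Of these, 36 of 39 were below 0, the median change was −0.20 and the summed reads gave a cKO over control ratio of 0.87 (counting limits 0.85 to 0.88). The median was −0.71 and −1.03 in the day 8 pairs. Other homeobox and Pax genes had a median of −0.22 (72 of 78 below 0), Sox, Fox, Gata, T-box and bHLH lineage factors −0.23 (47 of 56) and Wnt and Fgf ligands −0.20 (36 of 41). Of these promoters 0 passed 2-fold, beside 1.9% of all promoters on the lower side. Over all promoters the median was −0.10 and 15290 of 25048 lay below 0. When the median change of promoters of like GC content was subtracted, the median of the 4 lists together went from −0.22 to −0.05 and the number below 0 from 191 to 147 of 214.

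*Hoxc9*, a posterior Hox gene, had 1503 H3K27me3 reads in the day 4 control and 941 in the cKO, 1736 and 947 in day 8 pair 1, and 1400 and 723 in pair 2. *Hoxd9*, whose upstream sequence is printed above, had 1281 and 817, then 1481 and 850, then 1264 and 630. The cKO was lower in each pair of both genes, with day 4 changes of −0.43 and −0.40. *Hoxa9* had 1462 and 1004 reads at day 4 (−0.30), and *Pax6*, a regulator of eye and brain development, had 1105 and 802 (−0.22). Other members lay near or above 0 once depth was counted. *Hoxd4* had 517 reads in the control and 522 in the cKO, a change of 0.26, *Hoxb13* had 748 and 678 (0.10), and *Gata4*, an endoderm and heart factor, had 189 and 179 (0.17).

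Lists other than developmental regulators were on the lower side as well. Ribosomal protein genes, at 0.46 times input in the control, had a median change of −0.37 with 5 of 77 lower past 2-fold. Housekeeping genes had one of −0.22 with 5 of 28, beside 1.9% of all promoters. These lists held few reads, 2501 in the control over the 77 promoters and 1133 over the 28. With at least 30 reads and limits excluding 1, 2 members of each list were lower. The part of read depth in these shares was not tested. *Rpl35*, which encodes a protein of the large ribosomal subunit, had 27 reads in the control and 9 in the cKO. Of the DNA methylation enzymes and their partners, 13 of 15 were below 0 with a median of −0.41, from a median level of 0.70 times input in the control. *Dnmt3a*, a de novo methyltransferase gene at 7.97 times input, had 308 reads in the control and 173 in the cKO at day 4, then 211 and 117, and 306 and 112 at day 8. Its day 4 change was −0.59 (limits of the ratio 0.55 to 0.80), and the cKO was lower in all 3 pairs. *Mbd3*, which encodes a subunit of the NuRD complex, had 28 and 7 reads at day 4, and *Kdm6b*, a demethylase gene for H3K27me3, had 47 and 19.

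Of all promoters with lower H3K27me3 past 2-fold for which a level could be set, 88.1% (416 of 472) lay below input in the day 8 controls, against 30.7% of promoters tested. Of those with higher H3K27me3 it was 75.9% (63 of 83). The largest differences rested on small counts. *1200011M11Rik* had 28 and 2 reads, *Zfp346*, a zinc finger gene, 34 and 6, *Dohh*, which encodes deoxyhypusine hydroxylase, 28 and 5, *Gm14151*, with too few input reads for a level, 26 and 5, and *Cyp51*, a sterol synthesis gene, 49 and 10. At day 8 *1200011M11Rik* had 21 and 12 reads in pair 1 and 26 and 15 in pair 2, and *Cyp51* had 23 and 17 and then 18 and 15.

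Germline genes that DNA methylation keeps silent in other cells stood on the other side. Of 58 such promoters 41 were above 0, the median change was 0.12 and the summed reads had a cKO over control ratio of 1.10 (1.06 to 1.13). The median level was 2.30 times input in the control and 2.62 times in the cKO, and 0 promoters passed 2-fold. At equal GC content 46 of 58 were above 0, with a median of 0.21. The uncorrected median was 0.04 and −0.04 at day 8, where all promoters stood at −0.26 and −0.35. *Sycp3* had 60 reads in the control and 98 in the cKO at day 4, 76 and 134 in day 8 pair 1, and 58 and 108 in pair 2. The cKO was higher each time, with a day 4 change of 0.95 (limits of the ratio 1.39 to 2.71). *Piwil1*, a Piwi protein gene of spermatogenesis, had 90 and 123 reads (0.69), *Tex101*, a germ cell surface gene, 117 and 157 (0.67), and *Dazl*, a germ cell RNA-binding protein gene, 138 and 153 (0.39). Against these, *Prdm9*, which marks meiotic recombination sites, had 177 and 112 (−0.41).

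The X-linked Rhox homeobox and Xlr families, also expressed in the germline, had the highest median of the lists described here, 0.34. Of 40 members 27 had enough reads, 19 of them above 0 and 5 higher past 2-fold, beside 0.359% of all promoters. The 27 held 780 control reads in all. The read minimum applied to the pair together, so a copy could pass through its cKO reads. With at least 30 reads and limits excluding 1, only 1 member was higher, *Rhox2h*. Promoters on chromosome X had 63 reads at the median against 111 on the autosomes. They made up 3.39% of promoters tested but 16.7% of those with higher H3K27me3. The summed ratio of the 27 promoters was 1.29 (1.17 to 1.42), and their median was 0.32 and 0.22 at day 8. *Rhox9* had 61 reads in the control and 86 in the cKO, *Rhox2h* 9 and 21, *Rhox4a* 4 and 19, and *Xlr5c* 28 and 45. These families hold near-identical copies and alignments of low mapping quality had been discarded, so the split of reads between copies is uncertain. The window chrX:35080001-35090000, which overlaps exons of *Rhox3h* and *Rhox2h*, was among the 10 kb windows with the largest H3K27me3 differences. It had 11 and 36 reads at day 4, 14 and 21 in day 8 pair 1, and 25 and 26 in pair 2. Olfactory receptors, the largest of the families, had a median of −0.02 (1083 promoters).

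**Figure D2:**
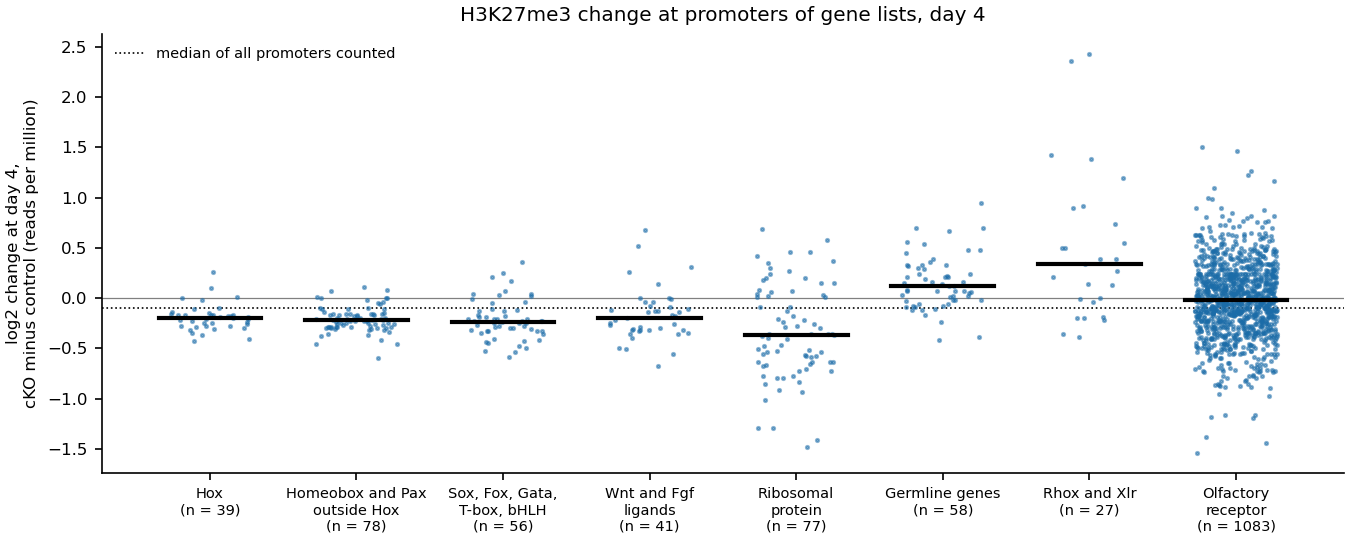
Day 4 change of H3K27me3 (log2, cKO minus control, y axis) at the promoters of 8 gene lists, 1 point per promoter with enough reads. Thick bars are list medians, from −0.37 for ribosomal protein genes to 0.34 for Rhox and Xlr, and the dotted line is the median of all promoters, −0.10.

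Markers of other cells that the cultures could hold were examined in the same way. H3K27me3 had a median change of −0.14 at fibroblast feeder genes (16 of 22 below 0), −0.20 at trophoblast genes (17 of 21) and −0.16 at neuronal genes (17 of 24). These carried the mark, at 3.49, 4.04 and 4.21 times input in the control. The pluripotency genes, which define ESCs, had a level of 0.93 times input in both libraries at the median and a change of −0.27. A repressive mark gives no expression, and a part of other cells in the differences was not tested.

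H3K27me3 differences over single windows were also few. At chr9:110000001-110100000, which overlaps *Dhx30* and the chromatin remodelling gene *Smarcc1*, there were 352 reads in the control and 191 in the cKO at day 4, 266 and 208 in day 8 pair 1, and 286 and 259 in pair 2. The cKO was lower in each pair. The window was picked for its day 4 difference, so the sizes at the 2 days cannot be compared. It was poor in the mark, at 0.33 times input in the day 4 control, with 874 input reads. At chr2:32080001-32090000, over exons of *Prrc2b*, there were 39 and 6 reads at day 4, then 32 and 19, and 30 and 24. The share of H3K27me3 reads in 10 kb windows that were at least 2-fold over input in day 8 controls was 21.3% in the control and 20.6% in the cKO at day 4. It was 25.1% and 20.2% in day 8 pair 1 and 20.8% and 15.6% in pair 2, with 5.72% in the input.

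H3K9me2 was higher in the cKO where CpGs were dense and where the mark was low. The median change over 100 kb windows was −0.06, −0.02, 0.12 and 0.28 in the 4 CpG classes from 0 to 5 up to 20 to 40 per kb, and all 69 windows of the last class were above 0. Windows below input in the day 8 controls had a median of 0.19 (3642 windows), those near input −0.01 and those above it −0.08 (1492 windows). Enriched windows thus lay below 0 and depleted windows above it. The share of H3K9me2 reads in 10 kb windows at least 2-fold over input in day 8 controls was small. It was 1.38% in the control and 1.31% in the cKO at day 4, with 0.622% in the input. The part of library background in these changes was not tested. Over 25470 windows the change had a Pearson r of 0.54 with CpG density, as a description of windows that share libraries and base composition. With the median of windows of like GC content subtracted it was 0.19. Promoters with 40 or more CpGs per kb had a median change of 0.22, at a level of 0.345 times input in the control and 0.390 times in the cKO.

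Gene-dense windows on chromosome 11 had the largest well-covered differences. At chr11:97500001-97600000, which overlaps *Mllt6*, *Cisd3*, *Pcgf2*, *Psmb3* and *Pip4k2b*, H3K9me2 had 136 reads in the control and 302 in the cKO at day 4, 159 and 173 in day 8 pair 1, and 160 and 534 in pair 2, with 700 in the input. At chr11:115200001-115300000, over *Cdr2l*, *Ict1*, *Atp5h* and *Kctd2*, there were 197 and 429, then 306 and 311, then 278 and 772, with 698 in the input. Scaled to depth the cKO was higher in each pair, least so in day 8 pair 1, where its library was the shallower one. Ratios were 1.63 (1.33 to 2.01) and 1.60 (1.35 to 1.90) at day 4, 1.27 (1.02 to 1.59) and 1.19 (1.01 to 1.40) in pair 1, and 2.38 (1.99 to 2.86) and 1.98 (1.73 to 2.28) in pair 2.

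Single features past 2-fold again rested on few reads. *Zfyve28* had 3 reads in the control and 27 in the cKO at its promoter, *Card6*, a gene of the caspase recruitment family, 4 and 27, *Sh3bp5l* 4 and 29, *1700034H15Rik* 4 and 29, and *Gbp5*, an interferon-induced GTPase gene, 6 and 39. On the lower side *Naf1*, a ribonucleoprotein assembly gene, had 23 and 7, *Gtf2b*, a general transcription factor gene, 22 and 9, and *Lphn3* 24 and 10. At chr11:68900001-68910000, over *Vamp2* and the clock gene *Per1*, there were 5 and 34 reads at day 4, 13 and 29 in day 8 pair 1, and 10 and 59 in pair 2. Of the promoters with higher H3K9me2, 92.4% (922 of 998) lay below input in the day 8 controls, as did 84.7% (172 of 203) of those with lower H3K9me2, against 56.7% of those tested.

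Gene lists differed in H3K9me2 as well. Genes for writers and readers of the 3 marks had a median change of 0.43 (21 of 29 above 0, 3 higher past 2-fold), Hox genes 0.40 (13 above 0 of the 18 with enough reads) and zinc finger genes named Zfp 0.15 (195 of 307, 15 higher). All promoters had a median of 0.11, with 4.59% higher past 2-fold. The 3 lists lay below input, at 0.31, 0.34 and 0.52 times it in the control at the median. Writers and readers rested on 371 control reads over 29 promoters and Hox genes on 204 over 18. The read minimum applied to the pair together, so a promoter could pass through its cKO reads. Day 8 medians were 0.02 and 0.92 for writers and readers and 0.16 and 1.15 for Hox genes. They were 0.23 and 0.65 for Zfp genes, beside 0.19 and 0.46 over all promoters. Olfactory receptors stood at −0.04 (1084 promoters) and vomeronasal receptors at −0.06 (253 promoters), both at about the level of input.

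H3K9me3 at the imprinted promoters that carry the mark was already lower at day 4. Over all imprinted promoters with enough reads, 30 of 58 were below 0 with a median change of −0.02, and *Herc3* alone passed 2-fold, with 10 reads in the control and 29 in the cKO. Of 59 imprinted genes, 12 had at least 2-fold more H3K9me3 than input in the day 8 controls, and these 12 promoters rest on 11 separate sets of tiles because *Peg10* and *Sgce* share one. At day 4, 11 of 12 lay below 0, with a median change of −0.48 and a range of −0.82 to 0.21. Their median level was 4.90 times input in the control and 3.20 times in the cKO. Other genes with at least 2-fold more H3K9me3 than input had a median change of −0.08 (412 promoters, 265 below 0), and those of them with 20 or more CpGs per kb one of −0.09 (59 promoters). These 2 comparison groups carried less of the mark, at 2.53 and 2.61 times input in the control at the median. No comparison at an equal level is given. Of the 12 imprinted promoters, 0 passed 2-fold at day 4, beside 0.84% of all promoters. The medians at day 8 were −1.55 and −2.62, where the control libraries are those that set the level.

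*Zrsr1* had 210 H3K9me3 reads in the day 4 control and 151 in the deeper cKO library, 306 and 17 in day 8 pair 1, and 182 and 21 in pair 2. Its changes were −0.82, −2.40 and −3.09. *Plagl1* had 201 and 159, then 287 and 18, then 202 and 24, with a day 4 change of −0.68. *Nnat* had 280 and 227, then 401 and 26, then 263 and 34, with a day 4 change of −0.65. In each of these 3 genes the cKO was lower in every pair and least so at day 4.

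*Nespas*, an antisense RNA of the *Gnas* domain, had 233 and 196 reads at day 4 (−0.59), and *Airn*, the noncoding RNA that silences *Igf2r*, had 233 and 204 (−0.54). The shared promoter of *Peg10* and *Sgce* had 169 and 154 (−0.48), *Peg3*, a paternally expressed zinc finger gene, 250 and 230 (−0.46), *Nap1l5* 165 and 163 (−0.36) and *H19*, a maternally expressed noncoding RNA, 229 and 231 (−0.33). Limits of the ratio lay below 1 for each of these and for *Zrsr1*, *Plagl1* and *Nnat*. *Meg3* had 228 and 265 at day 4, 234 and 55 in pair 1, and 201 and 121 in pair 2. Its day 4 change of −0.13 was within counting error (limits of the ratio 0.76 to 1.10), and its day 8 changes of −0.35 and −0.74 were smaller than those of *Zrsr1*, *Plagl1* and *Nnat*. *Igf2*, the growth factor gene next to *H19*, had 76 and 112 (0.21, limits 0.86 to 1.57). The day 4 changes thus ran from *Zrsr1* to *Igf2*, and neighbours in this order had overlapping limits.

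**Figure D3:**
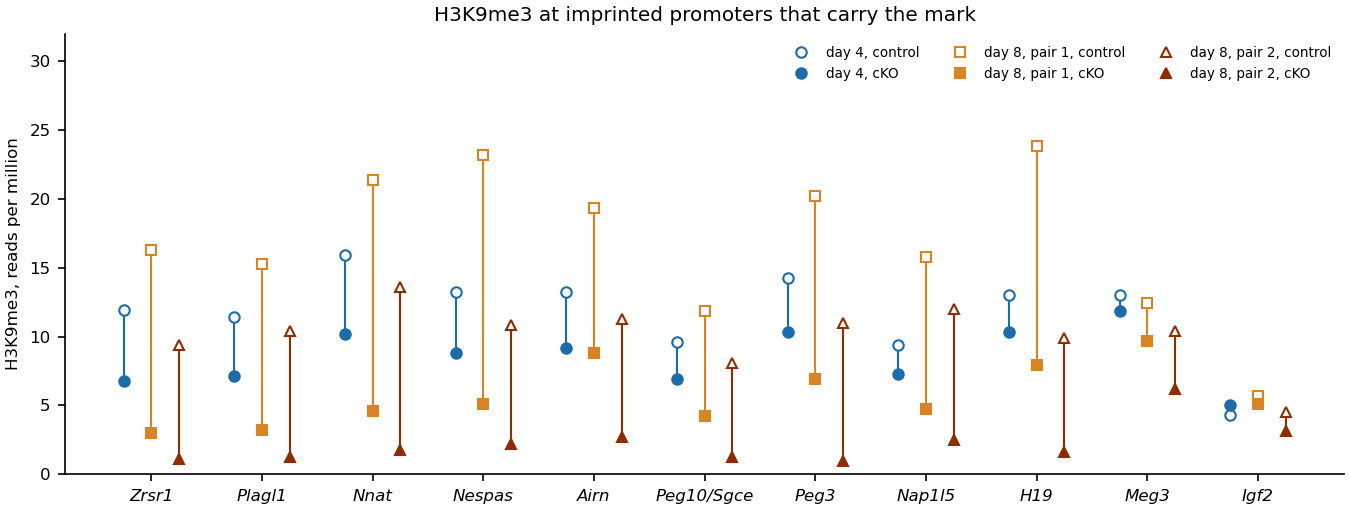
H3K9me3 in RPM (y axis) at the imprinted promoters with at least 2-fold more H3K9me3 than input in day 8 controls. Open symbols are control and filled symbols cKO libraries, joined within a pair. At day 4 *Zrsr1* was at 6.77 in the cKO, below its control, and *Igf2* alone was higher in the cKO (4.33 and 5.02).

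The other marks at the same 12 promoters differed unequally. H3K27me3 was below 0 at 10 of 12 with a median change of −0.44, from a level of 1.44 times input in the control, beside −0.10 over all promoters. H3K9me2 had enough reads at 9 of 12, 5 of which were below 0, with a median of −0.04. H3K9me3 and H3K27me3 were thus lower at most of these promoters and H3K9me2 lay on both sides of 0.

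Outside imprinted genes H3K9me3 was lower in CpG-poor and in strongly marked windows. Over 100 kb windows the median change was −0.09 with 0 to 5 CpGs per kb, where 82.1% of 4227 windows were below 0, and 0.07 with 10 to 20. Over 25510 windows the change had a Pearson r of 0.43 with CpG density, and of 0.08 with the median of windows of like GC content subtracted. The 135 windows most enriched for H3K9me3 had a median of −0.23 with 95.6% below 0, and a median level of 3.19 times input in the control and 2.74 times in the cKO. Chromosome Y, rich in repeats, had a median of −0.31 over 219 10 kb windows (91.8% below 0), and −0.56 and −0.97 at day 8. The share of H3K9me3 reads in enriched 10 kb windows was 13.3% in the control and 12.6% in the cKO, with 5.02% in the input.

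H3K9me3 promoters past 2-fold were others. *Tbc1d2b* had 7 reads in the control and 38 in the cKO at day 4, but 24 and 3 in day 8 pair 1 and 27 and 22 in pair 2. *Plcd1*, a phospholipase C gene, had 10 and 50, then 20 and 8, then 19 and 18. The cKO library of pair 1 was the shallow one. Scaled to depth, the day 8 changes were −1.08 and −0.30 for *Tbc1d2b* and 0.46 and −0.08 for *Plcd1*. *Xkrx* had 7 and 37 at day 4, *Lrrc8c*, a volume-regulated anion channel gene, 7 and 35, and *Lypla1* 7 and 34. The day 8 changes of these last genes were −0.06 and −1.22, −0.66 and 0.27, and 0.85 and 0.69 in that order. Of these 5 promoters, 0 were higher past 2-fold in either day 8 pair. On the lower side *Hmgb1*, a chromatin architectural protein gene, had 25 and 8, *Smad1*, a mediator of BMP signalling, 26 and 10, *Tmem70* 23 and 9, *Ctbp1*, a corepressor gene, 27 and 11 and *Grpr* 22 and 9. Genes of the 2-cell stage, many in multicopy families, had a median change of −0.33 (12 of 16 below 0).

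Whether the marks moved together was then examined. Over 25460 100 kb windows with enough reads in every mark, the changes of H3K27me3 and H3K9me2 had a Pearson r of −0.13, those of H3K27me3 and H3K9me3 0.09, and those of H3K9me2 and H3K9me3 0.18. With the median of windows of like GC content subtracted these were −0.13, 0.10 and 0.01, so the last value was close to 0 at equal base composition. Over 10 kb windows all 3 lay between −0.04 and 0.04. The windows share libraries, depth and base composition, and the correlations are descriptions. At day 8 the values over 100 kb windows were −0.04 and −0.52 for H3K27me3 with H3K9me2, 0.20 and −0.18 for H3K27me3 with H3K9me3, and 0.53 and 0.20 for H3K9me2 with H3K9me3. The day 8 pairs thus differed from each other by more than the day 4 values differed from 0.

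**Figure D4:**
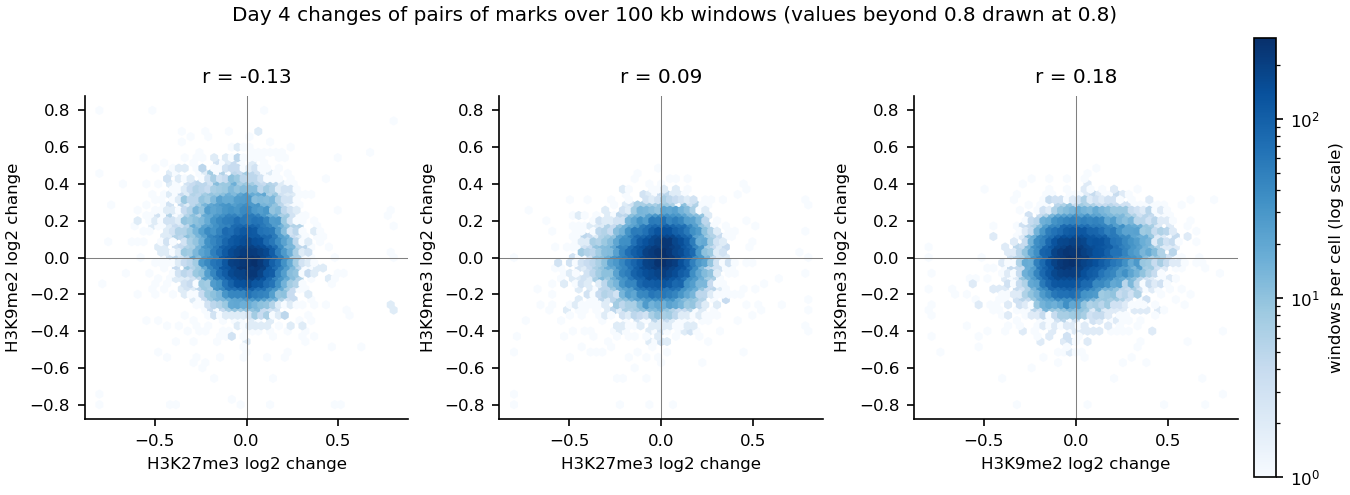
Day 4 changes (log2, cKO minus control) of pairs of marks over 25460 100 kb windows, 1 pair of marks per panel, with shading for the number of windows on a log scale and more extreme values drawn at the limit named in the title. The clouds are centred on 0 in each panel, with r of −0.13, 0.09 and 0.18.

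Few windows passed the fold in more than 1 mark. Of 10 kb windows past 2-fold, 64 were past it for both H3K27me3 and H3K9me2, 3.73% of the former and 3.11% of the latter, beside 0.826% of all windows past the fold for H3K9me2 and 0.688% for H3K27me3. In 41 of these H3K27me3 was lower and H3K9me2 higher, in 8 the reverse, in 8 both were higher and in 7 both lower. H3K27me3 and H3K9me3 shared 19 windows, as did H3K9me2 and H3K9me3. This was 4.01% in each case of the windows past the fold for H3K9me3, and 1.11% and 0.922% of those past it for the other mark. Of all windows, 0.19% were past the fold for H3K9me3. With H3K27me3, both were higher in 1 and both lower in 7, and H3K9me3 alone was lower in 5 and alone higher in 6. With H3K9me2, both were higher in 6 and both lower in 4, and H3K9me3 alone was lower in 6 and alone higher in 3. In all 3 marks and in the same direction, 0 windows and 0 promoters passed the fold. In mixed directions there were 2. The window chr4:145500001-145600000 had 22 and 10 reads of H3K27me3, 9 and 23 of H3K9me2 and 29 and 22 of H3K9me3, and the promoter of the X-linked *Armcx1* had 20 and 7, 7 and 22, and 5 and 16. All 3 changes were above 0 in 14.6% and below 0 in 13.7% of 100 kb windows.

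The only test that day 4 alone allowed asks for a change common to the 3 marks, with the mark as a block. limma (two-sided, Benjamini-Hochberg adjusted p under 0.05) called 0 of 25460 100 kb windows (0%), with 1809 at an unadjusted p under 0.05 and a lowest adjusted p of 0.615. Of 21624 promoters limma also called 0 (0%), with 1041 unadjusted and a lowest adjusted p of 0.984. limma-voom on the recovered reads called 0 windows and 2 promoters. These were *Man1a*, a mannosidase gene, and *Gm16998*, which had identical values, each with a mean change of −0.86 (adjusted p = 0.0331 by limma-voom). The spread in this test is the disagreement between marks, so it does not bear on a change in 1 mark.

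The windows that differed at day 4 were followed in the day 8 libraries, which share no library with day 4. Those with higher H3K9me2 had a median change of 0.16 in day 8 pair 1 and 0.90 in pair 2, where 90.7% were above 0, against 0.00 and −0.01 over all windows. The windows with higher H3K9me2 were unlike all windows in kind. Of them, 82.7% (1398 of 1691 with a level) lay below input in the day 8 controls, against 20.3% of those tested. Their median CpG density was 12.6 per kb against 7.2. No windows of like level and CpG density were set beside them. Windows with lower H3K9me2 had −0.13 and 0.06. Windows with lower H3K27me3 had −0.17 and −0.32, against 0.04 and 0.07 over all windows, and those with higher H3K27me3 had 0.14 and 0.15. These too were unlike all windows. Of the lower ones 90.6% (1282 of 1415 with a level) and of the higher ones 53.7% (190 of 354) lay below input, against 37.7% of those tested. No windows of like level were set beside these either. Windows with higher H3K9me3 had −0.03 and 0.10 and those with lower H3K9me3 −0.13 and −0.21, against −0.02 and −0.01. The day 4 groups thus lay on their own side of all windows in most pairs. They were nearer to 0 than at day 4, where passing 2-fold had defined them, so their size cannot be compared between the days.

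The fold was passed again in both day 8 pairs by 51 of 1718 windows with higher H3K9me2 (2.97%), beside 0.253% of all windows counted. For lower H3K27me3 it was 17 of 1434 (1.19%) beside 0.333%, and for lower H3K9me3 4 of 337 (1.19%) beside 0.16%. The numbers were 2 of 384 for higher H3K27me3 (all windows 0.0395%), 1 of 291 for higher H3K9me3 (0.0468%) and 0 of 426 for lower H3K9me2 (0.0052%). At promoters 64 of 998 with higher H3K9me2 (6.41%) did so, beside 2.3% of all promoters. The 28 of 476 with lower H3K27me3 (5.88%) were near the 6.14% of all promoters. Of promoters with higher H3K27me3 it was 0 of 90 (all promoters 0.0679%), with lower H3K9me2 0 of 206 (0%), with higher H3K9me3 1 of 289 (0.159%) and with lower H3K9me3 2 of 211 (0.446%).

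**Figure D5:**
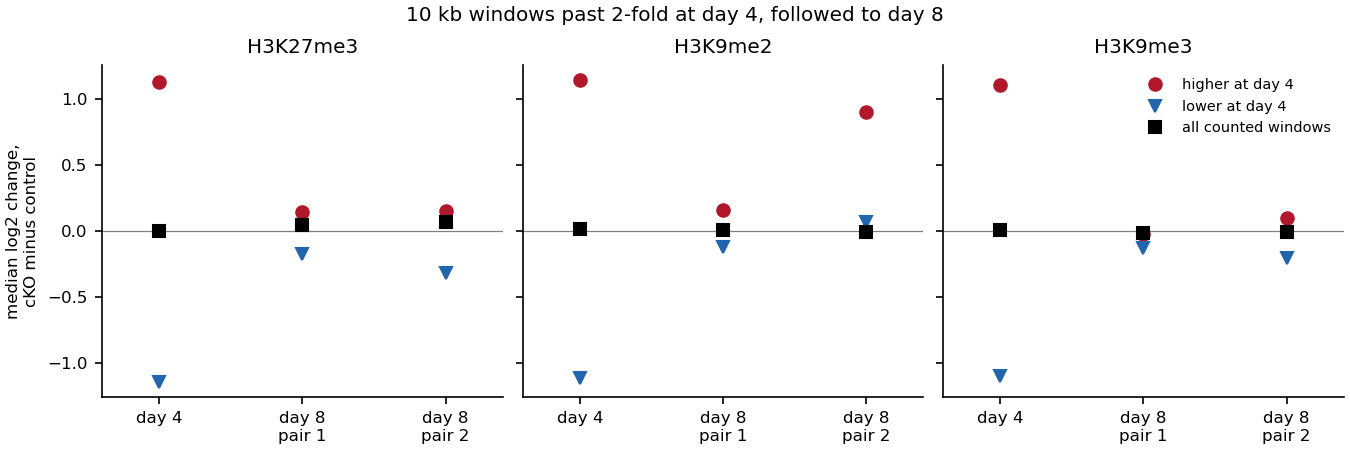
Median change (log2, cKO minus control, y axis) at day 4 and in each day 8 pair of 10 kb windows that were higher (circles) or lower (triangles) past 2-fold at day 4, with all counted windows as squares. Windows with higher H3K9me2 stood at 0.16 and 0.90 at day 8 and those with lower H3K27me3 at −0.17 and −0.32.

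Over 100 kb windows the day 4 change had a Pearson r with the change of the same mark in the day 8 pairs. For H3K27me3 it was 0.44 and 0.40, while H3K9me2 had 0.53 and 0.63 and H3K9me3 had 0.48 and 0.57. These values were higher than those between marks at day 4. They were not corrected for GC content, with which the day 4 change had an r of −0.02, 0.43 and 0.40 in the same order of marks. The part of base composition in them was not tested. The difference between the days was tested as a day by genotype interaction within each mark, with the single day 4 libraries assumed to vary like those of day 8. limma called 0 of 25464 H3K27me3 windows (0%), 0 of 25466 H3K9me2 windows (0%) and 0 of 25490 H3K9me3 windows (0%) at an adjusted p under 0.05, with 97, 25 and 1501 at an unadjusted p under 0.05. It called 0 of 24719, 0 of 19761 and 0 of 22196 promoters (0% each), with 1383, 271 and 498 unadjusted. For H3K27me3 and H3K9me3 these zeros depend on leaving out the replicate number as a block, and the blocked counts are given below. What a replicate number shares is not stated, so the zeros do not show that the days are alike. No other tool was run for the interaction.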

How the data were processed

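ChIP-seq libraries from cross-linked, sonicated chromatin were mapped by the authors to build NCBIM37 with Bowtie2 (version 2.2.9 in the submitters' processing notes) after adapter trimming, and alignments of low mapping quality were discarded. The table deposited by the authors holds log2 observed over expected reads in 1327469 tiles, which span 2 kb by their coordinates although the study's methods state 1 kb. Input was not subtracted, no spike-in is described and removal of duplicates is not given in the sources used here. Empty tiles had the value of 0.9 reads, and 100% of low values gave whole reads within 0.01. No value columns of other samples were present (0 unmapped).

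Reads were summed per 10 kb window, 100 kb window and promoter and scaled to the total in tiles, with 0.5 reads added for log2 changes. Features needed 20 reads in the pair. Limits of ratios are exact binomial at 95%, and levels needed 10 input reads. Common changes and interactions were fitted with limma 3.58.1 (R 4.3.3, eBayes with trend) on log2 RPM and tested on simulated data. Other values came from Python 3.11.15 with numpy 2.4.6, pandas 2.3.3 and scipy 1.17.1. p-values measure only the spread between these libraries, which may be technical.

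The members and the 27 gene lists were chosen with earlier results of these data known, so no list was tested. Windows and promoters were named by rule as those with the largest differences per mark and direction with at least 30 reads and limits excluding 1, outside the 1% with the highest input and chromosome 18, up to 4 10 kb windows, 3 100 kb windows, 5 promoters and 2 members per list. Other members of lists described in full were chosen after their values were seen. Where tiles are shared or genes overlap, reads cannot be assigned to one gene. Alternatives covered the read minimum, fold, scaling, GC content, promoter width, tile means, limma settings and left-out pairs.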

Additional observations from a re-analysis of the deposited data

Results flagged for a closer look

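Some values lay on opposite sides of 0 at day 4 and at day 8, and the difference between the days was not tested for them. H3K9me3 at the Rhox and Xlr promoters had a median change (log2, cKO minus control) of −0.10 at day 4 and of 0.29 and 0.10 in the day 8 pairs, over the 22 of 40 promoters with enough reads. Promoters with lower H3K9me2 at day 4 had a median of −1.13 there, by their choice, and of 0.07 and 0.87 in the day 8 pairs. Over all promoters the H3K9me2 medians in the same pairs were 0.19 and 0.46.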

How the results depend on the processing

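Counts of changed features moved with the read minimum, the fold and the use of deposited tile means, by construction where features were added or left out. For H3K27me3, 1818 10 kb windows became 935 with 50 reads in the pair, 3132 with no minimum, 108 at 3-fold and 3004 with the mean of deposited tile values. The 2144 H3K9me2 windows became 927, 3607, 147 and 3392, and the 628 H3K9me3 windows became 320, 1518, 17 and 1173. Over 100 kb windows H3K27me3 went from 29 to 15, 101 and, at 2-fold, 6, and to 17 where limits had to exclude 1. H3K9me2 went from 37 to 21, 107, 5 and 19, and to 56 with tile means, and H3K9me3 from 20 to 11, 62 and 6, and to 3 with tile means. Promoters went from 566 to 113 with 50 reads, 62 at 3-fold and 1046 with tile means for H3K27me3, and from 500 to 133, 25 and 978 for H3K9me3. For H3K9me2 they went from 1204 to 119, 181 and 1822, to 2201 with no minimum and to 735 where limits had to exclude 1.

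The test of a common change called 1 window without the trend in limma (−0.69, adjusted p = 0.0182) and 2 promoters with limma-voom. Leaving out 1 mark's pair gave 0 to 12 windows: 12 without H3K27me3 (10 higher, 2 lower), 2 without H3K9me2 and 0 without H3K9me3. The cause was not tested. For the interaction, a replicate block called 256 H3K27me3, 0 H3K9me2 and 82 H3K9me3 windows and 1653, 0 and 9 promoters in limma, where the fit without it called 0. The labels give only a number, so these libraries share no stated source. Deviations of the same-numbered day 8 libraries correlated at 0.71, 0.42 and 0.32, with 2 pairs a mark. Without day 8 replicate 1 or 2 no residual degrees of freedom remain, so those fits were not run and both pairs are given above. Windows with higher H3K27me3 at day 4 had a mean of the day 8 medians of 0.15, 0.13 with crossed pairs and 0.0657 after centring on the median 100 kb window.

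Of list medians more than 0.1 from 0 on the log2 scale, 8 reversed. At equal GC content these were H3K27me3 at writers and readers (0.0020) and H3K9me2 at lineage factors (−0.0517) and Wnt and Fgf ligands (−0.0077). With promoters of 1 kb they were H3K9me2 at lineage factors (−0.0595), Wnt and Fgf ligands (−0.0238), DNA methylation enzymes (−0.0309) and housekeeping genes (−0.0506), and H3K9me3 at Rhox and Xlr (0.0637). The H3K9me2 list of the small RNA pathway could not give a value there. In 47 further cases a list median moved by more than its counting error and in 196 it did not. Depth limits features near the minimum of 20 reads most, while counting limits excluded 1 for well-covered promoters below 2-fold.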

Other observations

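Some multigene families had values at day 4 that are not described above. Clustered protocadherins, adhesion genes of neurons that each have a promoter of their own, were above 0 for H3K27me3 at 18 of 24 promoters, with a median change of 0.07 and a level of 3.12 times input in the control and 3.47 times in the cKO. Their H3K9me3 was above 0 at 17 of 24 promoters with a median of 0.19, and their H3K9me2 at 15 of 23 with a median of 0.10. Over all promoters the medians of H3K27me3, H3K9me3 and H3K9me2 were −0.10, 0.02 and 0.11. Keratin genes had 55 of 92 promoters above 0 for H3K27me3 and 58 of 92 for H3K9me3, with medians of 0.06 and 0.10.

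Clustered histone genes, which are transcribed in S phase, had median changes of −0.21 for H3K27me3 (40 of 61 below 0) and −0.13 for H3K9me3 (38 of 61). Of the 61 promoters, 4 were lower past 2-fold for each of these marks, beside 1.9% and 0.84% of all promoters. The 61 held 2638 H3K27me3 reads in the control. With at least 30 reads and limits excluding 1, 3 were lower for H3K27me3. *Hist2h2aa1* and *Hist2h3c1*, which had identical values, had 27 H3K27me3 reads in the control and 8 in the cKO. Vomeronasal receptors had 7 of 249 promoters with lower H3K27me3 past 2-fold (2.81%, beside 1.9% of all promoters), among them *Vmn2r114* (37 and 12 reads) and *Vmn1r43* (37 and 12). *Vmn2r114* had 15 reads of H3K9me2 in the control and 46 in the cKO, so its H3K27me3 and H3K9me2 lay on opposite sides of 0.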
